A study of Mus musculus with 12 samples.

Results

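Integrins are the receptors by which a muscle cell holds its surroundings. The genes described here encode the 10 integrin chains taken as those of muscle cells: the α chains Itga3, Itga4, Itga5, Itga6, Itga7, Itga9 and Itgav and the β chains Itgb1, Itgb3 and Itgb5. They were chosen by name, 10 of 21938 protein-coding genes, and for each the peaks at its transcript starts, within 5 kb of them and in the gene were read from 8 peak lists. The lists come from CUT&RUN, in which an antibody guides a nuclease to chromatin in opened cells and the fragments it frees are sequenced. One antibody was against H3K4me3, the histone mark of active promoters, and the other against MBD2, a methyl-CpG binding protein of the NuRD remodelling complex. The cells were C2C12, a line of mouse myoblasts, as day 0 cells, as cells at day 1 of differentiation, and at day 5 as myotubes and as reserve cells, the mononucleated cells that did not fuse. All groups share the line, the differentiation medium held 2% horse serum, and the labels name no genetic change or drug. The medium of the day 0 cells is not stated here, so whether comparisons over day 0 also differ in medium cannot be told. Each antibody had 1 library per state, so differences between them could not be checked against replicates, and p-values are not given.

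An integrin is a pair of 1 α and 1 β chain, and the pair decides what the cell binds. With the common partner β1, the chains α3, α6 and α7 make laminin receptors, α5 makes the classical fibronectin receptor, α4 binds VCAM1 and fibronectin, and α9 binds tenascin-C and osteopontin. The chain αv pairs with β3 or β5 to bind vitronectin and other proteins with an RGD motif. In skeletal muscle α7β1 is the main laminin-binding integrin of the fibre and joins the basement membrane to the cytoskeleton.

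The starts of these genes differ in how many CpG sites they hold, the dinucleotide that carries DNA methylation. RefSeq promoters (GRCm38.p6) were at hand for 7 of the 10 genes, and for Itga9 only at its later start. In the 250 bases before the RefSeq start, CpG numbered 22 in Itga3, 21 in Itgb1, 18 in Itgav and in Itgb5, 11 in Itga5 and 6 in Itga4, against a median of 6 over all 32851 promoters of the table. Itga3 thus held more CpG than 85.2% of them and Itga4 more than 49.6%. The later start of Itga3 held 5 CpG, more than 44.4%. The sequences of 4 promoters, the CpG-richest of an α and of a β chain, the CpG-poorest among the first starts, and that of Itgb5, are given 5′ to 3′ on the strand of the gene, with each CpG in capitals. They lie at chr11:95076715-95076964 (minus strand), chr8:128685404-128685653, chr2:79255176-79255425 and chr16:33829415-33829664 (plus strand).
Itga3: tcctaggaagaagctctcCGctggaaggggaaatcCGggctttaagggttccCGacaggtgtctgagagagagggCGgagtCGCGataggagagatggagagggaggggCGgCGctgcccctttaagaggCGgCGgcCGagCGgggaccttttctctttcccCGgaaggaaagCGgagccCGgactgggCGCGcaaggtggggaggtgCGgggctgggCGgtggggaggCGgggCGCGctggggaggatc
Itgb1: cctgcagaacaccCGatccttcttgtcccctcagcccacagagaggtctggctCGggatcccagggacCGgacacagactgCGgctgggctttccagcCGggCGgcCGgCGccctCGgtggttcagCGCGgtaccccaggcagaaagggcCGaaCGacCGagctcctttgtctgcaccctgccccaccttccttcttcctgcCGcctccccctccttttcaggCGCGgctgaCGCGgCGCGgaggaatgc
Itga4: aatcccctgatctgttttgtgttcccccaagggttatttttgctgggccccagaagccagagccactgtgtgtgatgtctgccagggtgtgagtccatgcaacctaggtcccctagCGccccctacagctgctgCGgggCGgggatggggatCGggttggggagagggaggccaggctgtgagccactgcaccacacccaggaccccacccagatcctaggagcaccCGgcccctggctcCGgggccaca
Itgb5: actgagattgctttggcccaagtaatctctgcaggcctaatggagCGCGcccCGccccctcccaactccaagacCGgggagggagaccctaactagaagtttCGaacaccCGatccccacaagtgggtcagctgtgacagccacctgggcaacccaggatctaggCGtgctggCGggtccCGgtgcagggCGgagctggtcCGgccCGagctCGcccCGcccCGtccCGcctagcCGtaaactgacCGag

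Short motifs were looked for on both strands of these 250 bases. The muscle E-box CAGCTG, a core bound by myogenic factors such as MyoD, occurred in Itga4 at -125, in Itgb5 at -122 and at the later start of Itga9 at -28 from the RefSeq start, and in 13% of all promoters. The GC box GGGCGG, a core bound by Sp1, occurred at the first start of Itga3 and Itgb5 with 3 matches each, in Itga5 with 2 and in Itga4 and Itgb1 with 1 each, and in 32.7% of all promoters. The M-CAT motif CATTCC occurred in Itgb1 at -7 and in 12.6% of all promoters. The AP-1 motif TGANTCA occurred in none of the 7 genes and in 6.75% of all promoters. No E-box overlapped a GC box, and a match describes letters only.

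The H3K4me3 lists held between 15920 and 26034 peaks, and their lowest local background, a stand-in for depth, lay between 1.08 and 1.47 fragments per base. The myotube list stood apart with the most peaks, 26034, the shortest, with a median of 1217 bp, and the lowest median fold over local background, 9.55, against medians of 29.0 to 39.8 in the other lists. The day 0 MBD2 list held 14948 peaks and the later ones between 111 and 452, with a lowest local background of 0.360, 0.286, 0.776 and 0.947 fragments per base in the order of the states, so that nearly all MBD2 values below come from day 0. The labels were checked by H3K4me3 at marker promoters. All 5 myoblast genes (Pax7, Myf5, Myod1, Cdh15 and Des) were marked in every library. Of 6 myotube genes 0 were marked at day 0, all 6 at day 1 and in myotubes, and 5 in reserve cells, where Myh3 was unmarked. Of 3 fibroblast genes 2 were marked at day 0 and in myotubes and 3 at day 1 and in reserve cells. Of 3 endothelial genes 1 was marked at day 0 and in myotubes, 2 at day 1 and 0 in reserve cells, and of 3 blood genes 0 were marked in any list.

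Nearly all integrin chains of muscle cells carried H3K4me3 at a promoter, taken as the 1 kb either side of any transcript start. The mark was on 9 of the 10 genes at day 0 and at day 1, on all 10 in myotubes and on 8 in reserve cells. Over all protein-coding genes the shares were 56.5% in day 0 cells, 56.2% in day 1 cells, 57.3% in myotubes and 54.8% for reserve cells. Itga9 lacked a peak at day 0, at day 1 and in reserve cells, and Itga4 lacked one in reserve cells. In the median the marked regions were wider than those of all marked genes, though not in every member. Breadth, as the term is used here, is how many bases within 5 kb of the starts lay under a peak. A gene with starts far apart, such as Itgb5, is thus counted over more bases. The longest promoter peak of Itgb5 at day 0 was longer than those of 39.9% of marked genes. The median breadth over the marked members was 4778 bp at day 0, 4253 bp at day 1, 4184 bp in myotubes and, in reserve cells, 3321.5 bp. Over all marked genes the medians were 2920, 2633, 2625 and 2307 bp. By state, the breadth of the members ran from 833 to 7852 bp, from 1319 to 8030 bp, from 929 to 8533 bp and from 1704 to 6630 bp.

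**Figure D1:**
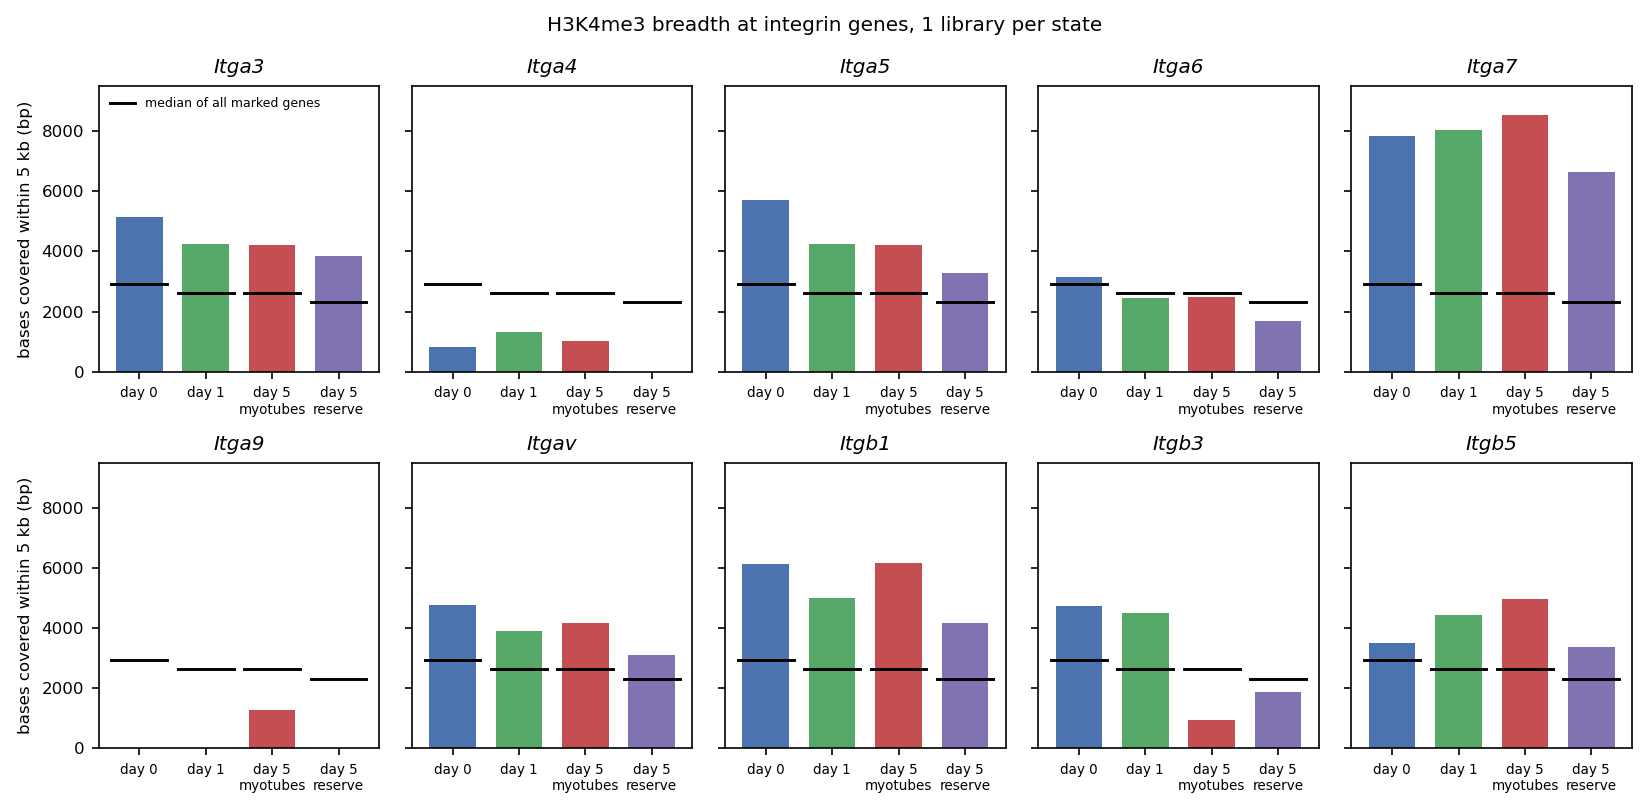
H3K4me3 breadth of each of the 10 integrin genes, in bp covered by peaks within 5 kb of a transcript start (vertical axis), in the 4 states (horizontal axis), 1 library each, with the median of all marked protein-coding genes as a black line. Itga7 stands highest in every library, with 7852, 8030, 8533 and 6630 bp, Itgb3 is low in both day 5 fractions, and Itga9 has a bar in myotubes only.

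Among the laminin receptors, Itga7 (mm10 chr10:128933818-128958282, plus strand) carried the broadest mark of all 10 genes in each library. Its breadth was 7852 bp at day 0, 8030 bp at day 1, 8533 bp in myotubes and, in reserve cells, 6630 bp. The single peak over its start was 6653, 8519, 10270 and 6677 bp long in that order, longer than the promoter peaks of 97.1%, 99.4%, 99.4% and 99.1% of marked genes in the same list. The summits stood 71.5, 113, 67.3 and 86.4 times over the local background, the authors' value for each peak. At day 1 and in myotubes this peak reached 2850 and 2908 bp upstream of the start, and at day 0 and in reserve cells 1037 bp. The upstream stretch was not bare at day 0. There a separate peak of 1457 bp (fold 9.93) lay from -2786 to -1330 bp of the start, and in reserve cells a smaller one of 590 bp (fold 4.01) lay from -2368 to -1779 bp. Downstream the peak reached 5615, 5668, 7361 and 5639 bp, furthest in myotubes.

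Itga3 (chr11:95044474-95076801, minus strand) had a breadth of 5147 bp at day 0, 4253 bp at day 1, 4215 bp in myotubes and, in reserve cells, 3852 bp. The peak over its first starts was 4229, 3840, 2876 and 3011 bp long, with folds of 71.0, 58.0, 27.3 and 66.7. In every library a second, weaker peak lay in an intron about the same place downstream, from 3683 to 4600 bp after the first start at day 0. The later start of Itga3, at 95069198, carried no peak of either antibody in any library. Itga6 (chr2:71745616-71858416, plus strand), whose product also pairs with β4 in epithelia, had 3143, 2466, 2494 and 1704 bp, all in 1 peak, with folds of 68.4, 43.1, 30.8 and 17.9. It was close to the median of all marked genes at day 0, day 1 and in myotubes, at 1.08, 0.937 and 0.950 times that median, and below it in reserve cells at 0.739 times.

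The receptors of fibronectin, VCAM1 and tenascin-C split into a strongly and 2 weakly marked genes. Itga5 (chr15:103344286-103366763, minus strand) had a breadth of 5699 bp at day 0, 4245 bp at day 1, 4221 bp in myotubes and, in reserve cells, 3283 bp, with folds of 56.4, 95.1, 83.2 and 101. In myotubes its summit exceeded those of 99.7% of marked genes in the same list. A further H3K4me3 peak lay in the gene between about 6 and 9 kb after the start in every library, 2523 bp long at day 0, 2607 bp at day 1, 2832 bp in myotubes and, in reserve cells, 1874 bp.

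Itga4 (chr2:79255426-79333123, plus strand) was marked faintly. Its single peak covered 833 bp at day 0, 1319 bp at day 1 and 1022 bp in myotubes, with folds of 2.65, 5.74 and 7.06 and a −log10 q of 1.66, 8 and 11.8. No peak was listed in reserve cells. The day 0 fold was lower than those of nearly all marked genes, with 0.0484% below it. With only peaks of −log10 q of at least 5, Itga4 counted as unmarked at day 0, and 8 of the 10 genes were marked there. Itga9 (chr9:118606690-118901003, plus strand) had a single promoter peak in the whole series, in myotubes, which began 5 bp after the first start, covered 1261 bp and had a fold of 9.55 and a −log10 q of 17.5. A second myotube peak of 800 bp (fold 6.75) lay deep in an intron of that gene, and its later start at 118711657 had no peak in any library.

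With a gene counted as marked by a peak at any of its starts, Itga4 and Itga9 were the members whose state differed between libraries. The later start of Itgb5 differed too and is described below. Itga9, the 1 member unmarked at day 0 and at day 1, was marked in myotubes. Of all protein-coding genes unmarked at day 0, 5.33% were marked in myotubes, and of those unmarked at day 1, 5.19%. Myotubes also marked both members that reserve cells lacked, beside 7.09% of all genes unmarked there. Reserve cells lacked the Itga4 peak of day 0 and day 1 cells, 1 of 9 members each time, and over all genes they lacked 4.12% of the promoters marked at day 0 and 3.30% of those marked at day 1.

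The αv and β chains were marked throughout. Itgav (chr2:83724397-83806916, plus strand) had a breadth of 4778 bp at day 0, 3899 bp at day 1, 4153 bp in myotubes and, in reserve cells, 3116 bp, and its day 0 fold of 115 exceeded those of 99.5% of marked genes in that list. The common partner Itgb1 (chr8:128685654-128733200, plus strand) had 6130, 4991, 6164 and 4159 bp, the second broadest of the 10 genes in every library. Its peak over the start was 6539, 4534, 4976 and 4159 bp long, with folds of 72.8, 78.9, 28.6 and 62.4.

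Itgb3 (chr11:104608000-104670476, plus strand), whose product forms the vitronectin receptor αvβ3, differed most between libraries. Its breadth was 4727 bp at day 0, 4498 bp at day 1, 929 bp in myotubes and, in reserve cells, 1877 bp. The day 0 and day 1 peaks reached 4100 and 3885 bp downstream of the start, those of myotubes and reserve cells 658 and 1421 bp. Upstream they reached 626, 612, 270 and 455 bp. The difference thus lay mostly in the downstream arm, in the first part of the gene. The folds were 66.0, 60.8, 8.55 and 23.9, and the myotube peak was longer than those of 7% of marked genes in its list, where the day 0 peak was longer than those of 89.4%. At day 0 another 4 H3K4me3 peaks of 233 to 993 bp lay in the introns up to 19893 bp after the start, against none at day 1, 1 of 323 bp in myotubes and none in reserve cells.

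Itgb5 (chr16:33829665-33949338, plus strand), the other β partner of αv, has a second start far inside the gene. Within 5 kb of the first starts the breadth was 3484 bp at day 0, 3399 bp at day 1, 3123 bp in myotubes and, in reserve cells, 3136 bp. Around the later start at 33891941, that of transcript Itgb5-207, it was 0 bp at day 0, 1022 bp at day 1, 1841 bp in myotubes and, in reserve cells, 224 bp. The first promoter was thus nearly level over the states, and the libraries differed at the later one, where the folds of the promoter peaks were 8.87 (day 1), 7.60 (myotubes) and 5.27 (reserve cells). In myotubes a further 5 H3K4me3 peaks of 371 to 2639 bp lay elsewhere in the gene, against none at day 0, 1 at day 1 and none in reserve cells.

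The peaks lay unevenly about their starts. At the first start the H3K4me3 peak reached further downstream than upstream in every marked member of every library, 9 at day 0, 9 at day 1, 10 in myotubes and 8 for reserve cells. Over all protein-coding genes with a peak at the first start the shares were 83.4%, 83.8%, 81.6% and 83.6%, so this shape is the common one. Its median reach at day 0 was 2527 bp downstream and 1037 bp upstream, and in reserve cells 2112 and 838.5 bp. The summit lay downstream of the start in 8, 9, 10 and 8 of these genes, beside 81.0%, 82.2%, 80.3% and 83.0% of all such genes. The exception was Itga4 at day 0, with a summit 120 bp upstream.

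For a comparison between libraries, the log2 ratio of breadth was set against the median of all protein-coding genes marked in both, and a gene past 1.5 times that median (0.58 on the log2 scale) was called broader or narrower. In myotubes over day 0 the members' median was -0.05 and ranged from -2.19 to 0.66 on this centred scale, over 9 genes. All 12060 genes marked in both had shifted by -0.15 before centring. Itgb5 was broader at 0.66 (4964 bp in myotubes, 3484 bp at day 0), 1 of 9 members beside 9.36% of all genes. That call rested on the bases at the later start and fell short of the threshold, at 0.47 and 0.48, with peaks of −log10 q of at least 5 or equal numbers of peaks. Itgb3 was narrower at -2.19 (929 bp in myotubes, 4727 bp at day 0), 1 of 9 beside 8.53% of all genes, and only 0.307% of all genes had a lower ratio. The other 7 members lay between -0.28 and 0.45. With the full length of the promoter peak as the measure, Itga7 was past the threshold at 0.80 (10270 bp in myotubes, 6653 bp at day 0). By bases covered it was at 0.27, since the separate upstream peak of 1457 bp at day 0 then counts as well. The share of all genes past the threshold by peak length is not given here.

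In reserve cells over day 0 Itgb3 was again narrower, at -0.99 (1877 bp in reserve cells, 4727 bp at day 0), the lowest of 8 members. It was 1 of 8 beside 5.48% of all genes narrower, and 1.95% of genes had a lower ratio. No member was broader, beside 1.88% of all genes. Within 2.5 kb of the start in place of 5 kb the value was -0.42 and no longer past the threshold. Itga6 at -0.54 and Itga5 at -0.45 came next without reaching it. The median of the members was -0.24 on the centred scale. Before centring it was -0.59, beside -0.35 over all 11892 genes.

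In day 1 cells over day 0 the members' median was -0.13 on the centred scale. Before centring it was -0.28, beside -0.14 over all 12172 genes. Itga4 was broader at 0.80 (1319 bp at day 1, 833 bp at day 0), 1 of 9 beside 1.62% of all genes, and from the faint day 0 peak described above. None was narrower, beside 2.52% of all genes. Itgb5 followed at 0.48 (4421 bp at day 1, 3484 bp at day 0), short of the threshold but above 97.7% of all genes. It was past it at 0.66 within 2.5 kb of the starts, and at 0.10 with the gene's 5′ end alone. Itgb3 was at 0.07, so its narrow mark was seen in the day 5 fractions and not at day 1.

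Against day 1, Itgb3 was the member past the threshold in both day 5 fractions, at -2.27 in myotubes, beside 6.33% of all genes narrower, and at -1.06 in reserve cells, beside 3.67%. Within 2.5 kb the reserve cell value was -0.56, just short of it. None of the other members was past it, and the shares of all genes broader were 9.03% in myotubes and 1.04% for reserve cells. In myotubes over reserve cells Itgb3 was narrower at -1.20 (929 bp in myotubes, 1877 bp in reserve cells), 1 of 8 beside 4.67% of all genes, and none was broader, beside 10.7%. Itgb1 and Itgb5 at 0.38 and Itga6 at 0.37 were the highest there. Comparisons with the same library as their base share its peaks and are not independent of each other. The lower fold and shorter peaks of the myotube library touch every ratio with it. Their part in these values was not tested.

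**Figure D2:**
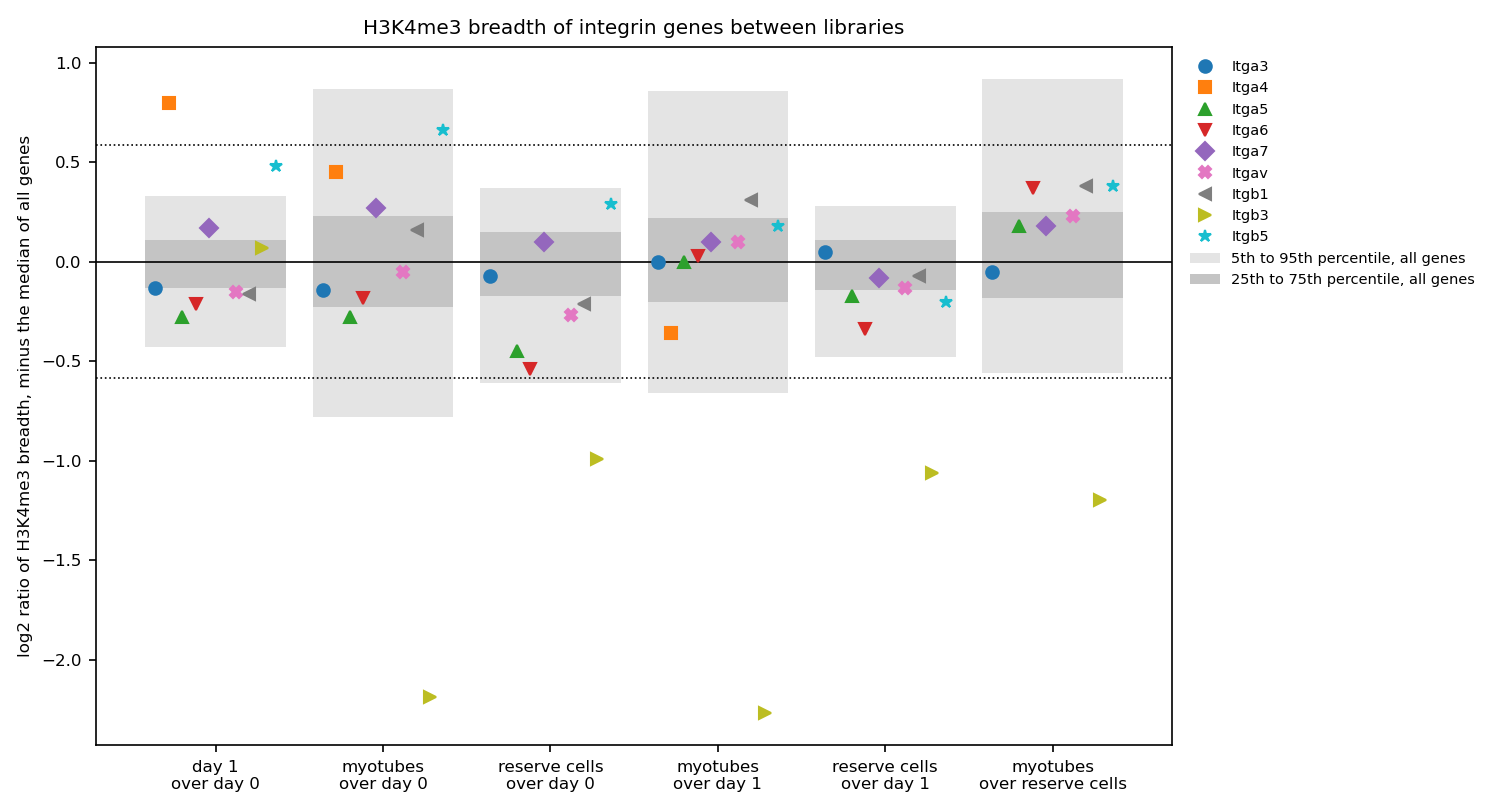
Centred log2 ratio of H3K4me3 breadth (vertical axis) of the members marked in both libraries for the 6 comparisons (horizontal axis), over the 5th to 95th and 25th to 75th percentiles of all such genes (light and dark grey), with dotted lines at 1.5 times. Itgb3 lies at -2.19 in myotubes over day 0 and at -0.99 in reserve cells over day 0. Itga9 has no ratio, since 1 library alone marked it.

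MBD2 was found on 6 of the 10 genes at day 0 and nearly nowhere later. Over the whole gene and the 5 kb around its starts, 24.5% of protein-coding genes had MBD2 at day 0. This share was not matched for gene length, and a long gene has more room for a peak. At the promoter the only member was Itgb5, 1 of 10, beside 11.1% of protein-coding genes at day 0. No member had MBD2 at a promoter at day 1, in myotubes or in reserve cells, beside 0.998%, 0.620% and 0.251% of genes. Within 5 kb of a start 5 members had it at day 0 (Itga3, Itga7, Itgav, Itgb3 and Itgb5), beside 16.0% of genes. Of the 20 day 0 peaks on the members, 1 was at a promoter, 6 were within 5 kb and 13 lay in gene bodies. Itga4, Itga6, Itga9 and Itgb1 had none in any library.

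The promoter peak of Itgb5 lay at the later start, chr16:33891582-33892166, 585 bp long, with 13 fragments at its summit and a fold of 10.3. At day 0 no H3K4me3 peak lay there. In the later libraries the same start had H3K4me3 and no listed MBD2, with H3K4me3 peaks of 1022 bp at day 1, 1205 bp in myotubes and, in reserve cells, 224 bp. The later MBD2 lists were short, with 452, 288 and 111 peaks against 14948 at day 0. A loss of MBD2 is thus not shown. With equal numbers of peaks per antibody, 111 in each MBD2 list, the day 0 MBD2 peak was not called either. That cut left 64 of the 2432 genes with MBD2 at a promoter at day 0, so it says little about this start. This later start was 1 of 102 promoter windows of protein-coding genes with MBD2 and without H3K4me3 at day 0. Of these windows, 6.86% had H3K4me3 in day 1 cells, 24.5% in myotubes and 4.90% in reserve cells. Of the 13476 windows with neither at day 0 the shares were 1.55% in day 1 cells, 4.96% in myotubes and 1.26% for reserve cells. Another 6 MBD2 peaks of day 0 lay in Itgb5, with folds of 5.88 to 8.82. None of the 7 overlapped H3K4me3 at day 0, and 4 of them did so in myotubes.

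Itgb3 had 6 MBD2 peaks at day 0, all downstream of its start and within 20244 bp of it, with folds of 3.66 to 11. Unlike in Itgb5, 5 of the 6 overlapped H3K4me3 of the same state. The peak nearest the start, 788 bp long with a fold of 5.88, lay 3240 to 4027 bp downstream, inside the arm of H3K4me3 that the day 5 peaks lacked. No MBD2 peak was listed on Itgb3 at day 1, where that arm was still present to 3885 bp. The day 1 MBD2 list held 452 peaks against 14948 at day 0, so a missing peak there says little. Whether MBD2 bears on the arm was not tested. Itgb3 and Itgb5 were 2 of the 217 protein-coding genes, 0.989%, with at least 6 MBD2 peaks at day 0, a count that long genes reach more easily.

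**Figure D3:**
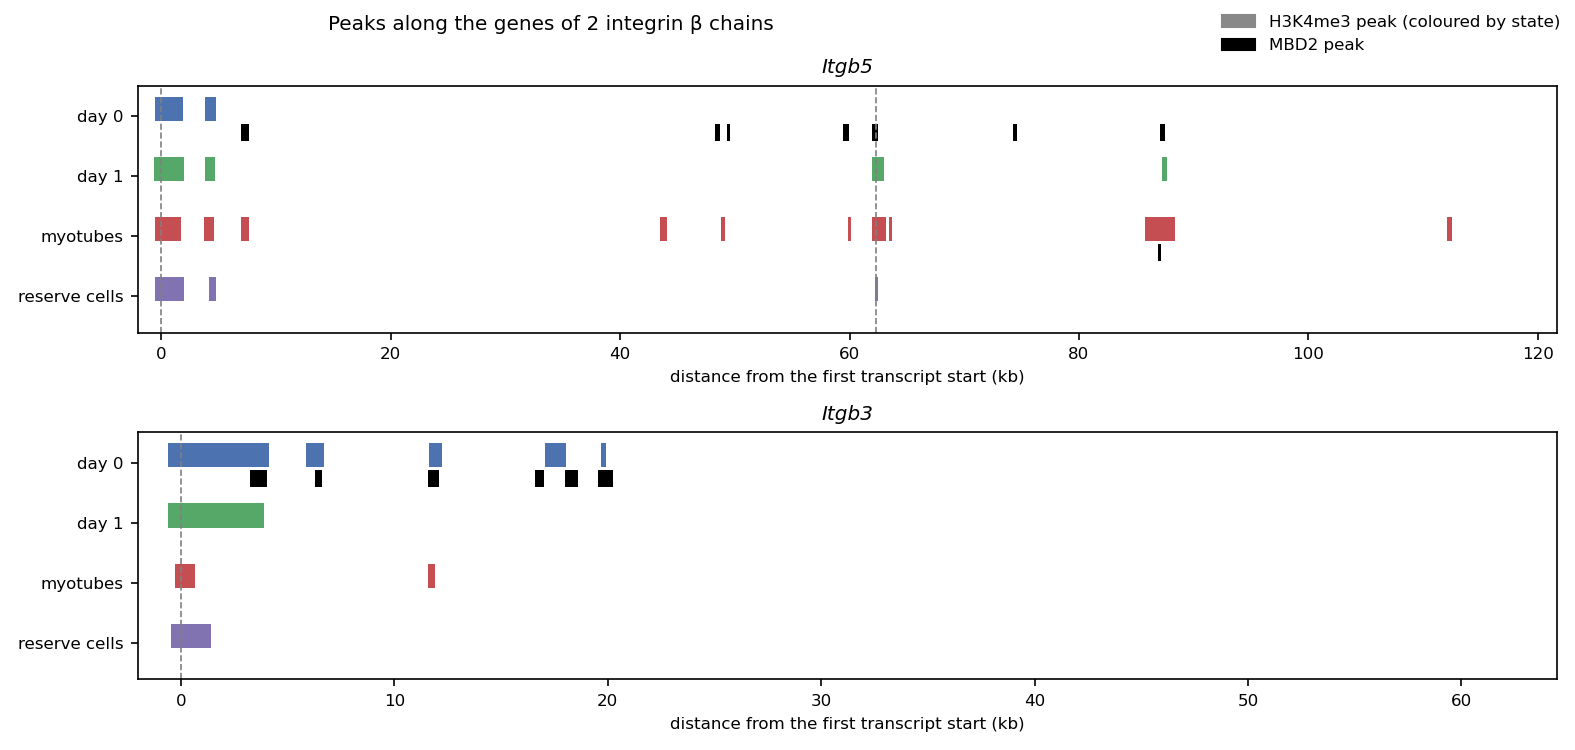
Peaks along Itgb5 and Itgb3 (horizontal axis, kb from the first transcript start; dashed lines mark transcript starts) for the 4 states (rows), with H3K4me3 peaks as coloured bars and MBD2 peaks as black bars beneath them. At day 0 Itgb5 has 7 MBD2 peaks clear of H3K4me3 and Itgb3 has 6, of which 5 overlap it.

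The remaining MBD2 peaks were at the α chains. Itga3 had 1, 452 bp long with a fold of 10.3, from -1785 to -1334 bp of the first start, within the H3K4me3 peak of day 0. Itga7 had 2 upstream, with folds of 5.88 and 6.62, and the nearer, from -2423 to -2003 bp, overlapped H3K4me3 in all 4 states, as did the other. Itgav had 1 within 5 kb (fold 6.62) and 2 in an intron (fold 4.41 each). Itga5 had 1 at 7264 to 7877 bp after the start (fold 7.35), and it was the single site on the members still listed at day 1, with 5 fragments at its summit, a fold of 4.49 and a −log10 q of 1.70. In myotubes the single MBD2 peak was in Itgb5 (fold 5.07, −log10 q of 2.43), and it overlapped a day 0 peak. Over the 20 day 0 peaks, 10 overlapped H3K4me3 of day 0, beside 36.3% of all 14948 day 0 MBD2 peaks.

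MBD2 binds methylated CpG, so the CpG of these peaks is given from the genome sequence, which says nothing of their methylation. The 20 day 0 peaks held a median of 1.21 CpG per 100 bp, from 0.475 to 2.43, beside 1.24 for all day 0 MBD2 peaks. Those at protein-coding promoters held 4.98 and those elsewhere 1.08. Of the members' 20 peaks, 19 lay away from promoters, and the Itgb5 promoter peak held 1.37. The 151 bases around the summits are shown for that peak and for the CpG-densest peak, that of Itga3, on the plus strand of mm10 with each CpG in capitals, at chr16:33891685-33891835 and chr11:95078156-95078306.
Itgb5 later start: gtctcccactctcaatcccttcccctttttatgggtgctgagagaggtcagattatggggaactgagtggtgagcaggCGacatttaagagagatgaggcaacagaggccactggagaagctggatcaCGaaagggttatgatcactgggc
Itga3 upstream: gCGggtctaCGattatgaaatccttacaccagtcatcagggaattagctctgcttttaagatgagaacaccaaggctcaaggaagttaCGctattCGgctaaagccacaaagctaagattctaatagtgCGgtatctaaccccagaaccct

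The other integrin chains form a second list. Of 16 (α1, α2, α2b, α8, α10, α11, αD, αE, αL, αM, αX and β2, β4, β6, β7, β8), 6 had a promoter peak at day 0 and in myotubes, 5 at day 1 and 4 in reserve cells. Over all protein-coding genes the shares were 56.5% at day 0, 57.3% in myotubes, 56.2% at day 1 and 54.8% in reserve cells. Itga11, a collagen receptor chain, was marked at day 0 (819 bp), day 1 (940 bp) and in reserve cells (1655 bp) but not in myotubes. Itga2, also of a collagen receptor, had 496 bp at day 0 and none elsewhere, and Itga10 had 1135 bp in day 1 cells, 937 bp in myotubes and no peak in the other 2 lists. Itgb7, a leukocyte chain, was the 1 of 16 with MBD2 at day 0 (fold 5.88), beside 11.1% of all genes, there without H3K4me3, and 606 bp of H3K4me3 in myotubes alone.

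Of the genes for proteins that integrins bind, 7 of 15 were narrower in myotubes over day 0 and 0 broader, with a median of -0.36, beside the 8.53% and 9.36% of all genes given above. Of the 20 ligand genes, 16 were marked at day 0 and in myotubes, 17 at day 1 and 15 in reserve cells. Over all genes, 54.8% to 57.3% were marked in these libraries. In day 1 cells over day 0, 2 of 16 were narrower, beside 2.52% of all genes. In reserve cells over day 0, 3 of 15 were narrower, beside 5.48%, with a median of 0.02. The laminin chain Lamb3 had 1643 bp in day 0 cells, 605 bp in day 1 cells, no peak in myotubes and 559 bp in reserve cells. Lama1 had 736, 391, 402 and 0 bp, Lama3 had 392 bp at day 1 alone and Lama4 had 1485 bp in myotubes alone. Of the 7 narrower in myotubes over day 0, Spp1, which encodes osteopontin, was at -1.90 (1449 bp in myotubes, 6033 bp at day 0). Tnc, the tenascin-C ligand of α9, was at -1.46 (1481 bp in myotubes, 4537 bp at day 0). Vcam1, the ligand of α4, was at -0.72 (2303 bp in myotubes, 4219 bp at day 0). The other 4 were Fbn1 at -0.95, Nid1 at -0.93, Lamb1 at -0.89 and Lama1 at -0.72, genes of fibrillin, nidogen and laminin chains. All 7 are named after their values were seen. The fibroblast genes Pdgfra and Col1a1 had a median of -0.61 in the same comparison, with 1 of the 2 past the threshold. Pdgfra had 2100 bp in myotubes and 4568 bp at day 0, Col1a1 2381 and 3145 bp, and Dcn was unmarked in both. The part of cell makeup in these values was not tested. MBD2 was at 5 of the 20 ligand promoters at day 0, beside 11.1% of all genes, and at 1 at day 1, beside 0.998%.

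Inside the cell, adaptors and kinases tie integrins to actin. Of 28 such genes 25 were marked in myotubes and 24 in each of the other states. Over all genes, 57.3% were marked in myotubes and 54.8% to 56.5% in the others. In myotubes over day 0 the median of the list was 0.09. There 2 of 24 were broader and 0 narrower, beside 9.36% of all genes broader and 8.53% narrower. The share broader was thus near that of all genes. Both were PINCH genes, whose products bind integrin-linked kinase. Lims1 was at 1.27 (9198 bp in myotubes, 4237 bp at day 0) and Lims2 at 1.20 (4072 bp in myotubes, 1971 bp at day 0). Itgb1bp2, which encodes melusin, a muscle protein that binds the β1 tail, had 2229 bp (fold 12.6) in myotubes and no peak in the other 3 libraries. Vcl, which encodes vinculin, had the strongest MBD2 peak of the list at day 0 (fold 10.3) and was at 0.56 (6142 bp in myotubes, 4621 bp at day 0). MBD2 was at 7 of the 28 promoters at day 0, beside 11.1% of all genes, and at 1 in myotubes, beside 0.620%.

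The genes whose breadth over the 4 H3K4me3 libraries came nearest to that of the members at either end were sought among all protein-coding genes, by distance on the log2(breadth + 100 bp) scale. Nearest to Itgb3 were F3 at 0.46, Cdc20 at 0.47 and Epha1 at 0.50. F3, which encodes tissue factor, had 4633 bp at day 0, 3490 bp at day 1, 1154 bp in myotubes and, in reserve cells, 1904 bp. Cdc20, an activator of the anaphase-promoting complex, had 4401, 3594, 1097 and 2266 bp. Nearest to Itgb5 were Csnk1d at 0.16, Slc33a1 at 0.16 and Nptx1 at 0.18, and Csnk1d, a casein kinase gene, had 3747, 4103, 4778 and 3326 bp. The distance to the nearest gene was thus larger for Itgb3 than for Itgb5.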

How the data were processed

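H3K4me3 and MBD2 were profiled by CUT&RUN in 4 states of C2C12 cells, 1 library each. The 4 IgG samples were not analysed here. Trim Galore, Bowtie2, SAMtools and MACS2 were used with mm10, per the submitters' processing notes, with versions, settings, any use of IgG as control, and whether the lists had passed the later filtering that the design text names, not given in the sources used here. A deposited list gives the peaks of 1 library. The deposited pileup is a signal, the fragments over the summit. The deposited fold enrichment, so named per the file headers, is a ratio over the background near the peak. The deposited −log10 p-values and −log10 q-values stand under damaged names in the headers and were told by the column order of MACS2. With no read totals in the lists, the lowest local background of a list, from (pileup + 1)/fold − 1, stands in for depth.

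Peaks on the numbered chromosomes, X and Y were joined to the GENCODE M21 basic transcripts of mm10 (55413 genes) with Python 3.11.15, numpy 2.4.6 and pandas 2.3.3, an overlap of 1 bp counting. Gene coordinates are those of the M21 gene records, and the overlap code was tested on simulated data. Breadth ratios need a promoter peak in both libraries. Shares over all protein-coding genes are the background, and no test was possible with 1 library per group. From each gene list up to 4 genes are named: those whose H3K4me3 state differs between libraries, by fold, then those past 1.5 times in myotubes over day 0, then those with MBD2. Ligand genes that narrowed in myotubes over day 0 are named beyond this rule, after their values were seen. So are the other integrin chains marked in every library. The members, lists and rules were chosen with earlier results of these data known. Alternatives were the peak threshold, peak number, windows, overlap, starts, transcript set, centring and breadth measure.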

Additional observations from a re-analysis of the deposited data

How the results depend on the processing

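With 1 library per group, a result counted as moved when it changed by more than 0.29 on the log2 scale, or a count by more than 1.5 times. Over 11 alternative settings, 100 of 104 values for the members as a group stayed within this and 4 moved. The median ratio in reserve cells over day 0 was -0.59 without centring, by which the shift of all genes is no longer taken off. The number of members with MBD2 at a promoter at day 0 was 0 with equal numbers of peaks per antibody, 0 with the gene's 5′ end alone, which leaves out the later start of Itgb5, and 2 with a promoter of 2 kb either side, which adds Itga3. H3K4me3 calls ranged from 8 to 9 members at day 0 and at day 1, from 9 to 10 in myotubes and from 7 to 8 in reserve cells. Itga4 dropped out at day 0 with a −log10 q of at least 5 or equal numbers of peaks. Itga6 dropped out in every library with the 5′ end alone, whose gene record begins upstream of the basic starts. Of 398 values for single members 364 stayed, 33 moved and 1 reversed, that of Itgb5 in myotubes over day 0, at -0.00 with the 5′ end alone. All GENCODE M21 transcripts in place of the basic set were an alternative added after seeing the data, with 0.91 for that value. Itgb3 in myotubes over day 0 stayed past the threshold under every alternative run, between -2.44 and -1.61. No paired analysis was possible because each group held 1 library. What depth limits could not be read from the lists, which hold no read totals, and a missing peak is not shown to be a missing protein.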
